A study of Mus musculus with 35 samples.

Results

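Hyaluronan is a long unbranched sugar polymer of the extracellular matrix, and 8 genes that make, bind, organise or degrade it were followed here across sorted cells of mouse hind paw skin. The 8 genes were Has1, Has2, Tnfaip6, Ptx3, Cd44, Vcan, Hyal1 and Hyal2, out of 22609 gene symbols in each count table, and all 8 were listed in every one of the 35 libraries. The members were chosen by the counts of Has1 and Tnfaip6, which were higher in keratinocyte sorts from drug-treated males than from vehicle males. Values of that contrast, for all 8 genes, are therefore given as a description, with no test. After a filter on low counts, 8 members entered the fit of fibroblasts, 7 that of immune cells and 6 that of keratinocytes.

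Messenger RNA was sequenced from 3 sorted populations of C57 mice aged 8 to 16 weeks: immune cells (CD45+, from wild-type mice), fibroblasts (Col1a2-cre-ER/tdTom) and keratinocytes (K5-cre-ER/tdTom). In the last 2 populations the sort followed a tdTomato label switched on by an inducible Cre recombinase, driven by the promoter of the collagen gene Col1a2 or of the basal keratin gene K5, so a label marks the cells in which that promoter was active when Cre was induced. Each population came as vehicle females, vehicle males and PTX males, with 4 libraries a group except for 3 of keratinocytes from vehicle males. PTX is paclitaxel, a chemotherapy drug that stabilises microtubules and is known for causing painful neuropathy; mice got 2 intraperitoneal injections of 2 mg/kg on consecutive days, and paws were collected 6 days after the second. No group of PTX females was analysed here. Whether libraries of a group were made from different mice is not stated, so every p-value reflects the variation among these libraries, part of which may be technical.

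Gene counts per library ranged from 13359088 to 20809036 in fibroblasts, from 13847475 to 18979776 in immune cells and from 6518070 to 12055718 in keratinocytes, apart from replicate 2 of the vehicle female keratinocytes with 988712. Sort markers were present in their own population: Col1a2 lay at or above 3673 CPM (counts-per-million of gene counts, scaled over all 35 libraries) in every fibroblast library, Krt5 at or above 880 CPM in every keratinocyte library and Ptprc, the gene of CD45, at or above 357 CPM in every immune library. The keratinocyte libraries of PTX males stood apart. In those libraries a list of 10 fibroblast marker genes summed to 11948 to 15328 CPM, against 109 to 515 in vehicle males and 213 to 1210 in vehicle females, while a list of 10 keratinocyte markers summed to 3725 to 10862 CPM, against 21610 to 25186 and 17805 to 26536. A list of 8 endothelial markers reached 1694 to 2535 CPM there, against 0.63 to 261 in vehicle males, and 8 pan-immune markers 765 to 1083 CPM, against 8.28 to 46.0.

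Hyaluronan is made at the plasma membrane by hyaluronan synthases, which join UDP-glucuronic acid and UDP-N-acetylglucosamine and push the growing chain out of the cell. In skin it is most abundant in the dermis, where fibroblasts make it, and it also surrounds basal keratinocytes. Outside the cell, TSG-6 (encoded by Tnfaip6) transfers heavy chains of inter-alpha-inhibitor onto the chain, pentraxin 3 (Ptx3) cross-links those heavy chains, versican (Vcan) binds the chain as a large proteoglycan, CD44 (Cd44) is its main cell-surface receptor, and the hyaluronidases encoded by Hyal1 and Hyal2 cut it. Tnfaip6 and Ptx3 are known as genes induced by inflammatory signals.

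Has1, Tnfaip6 and Ptx3 were the members that differed between immune cells of PTX and vehicle males, so the 250 bases before their RefSeq start sites are shown (assembly GRCm38.p6, 5′ to 3′ on the gene's strand, with capitals marking a match to a searched motif). The Has1 window is chr17:17855189-17855438 on the minus strand, the Tnfaip6 window chr2:52037863-52038112 on the plus strand and the Ptx3 window chr3:66219637-66219886 on the plus strand.
Has1: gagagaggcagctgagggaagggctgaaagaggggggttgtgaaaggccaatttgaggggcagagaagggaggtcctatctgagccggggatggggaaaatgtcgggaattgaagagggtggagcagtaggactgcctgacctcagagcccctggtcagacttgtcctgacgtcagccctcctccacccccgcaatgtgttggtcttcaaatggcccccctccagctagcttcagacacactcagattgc
Tnfaip6: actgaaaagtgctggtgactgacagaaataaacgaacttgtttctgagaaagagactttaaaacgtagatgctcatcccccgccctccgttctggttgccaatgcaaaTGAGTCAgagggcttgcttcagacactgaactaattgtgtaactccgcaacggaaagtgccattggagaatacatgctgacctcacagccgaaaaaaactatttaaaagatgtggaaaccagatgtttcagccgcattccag
Ptx3: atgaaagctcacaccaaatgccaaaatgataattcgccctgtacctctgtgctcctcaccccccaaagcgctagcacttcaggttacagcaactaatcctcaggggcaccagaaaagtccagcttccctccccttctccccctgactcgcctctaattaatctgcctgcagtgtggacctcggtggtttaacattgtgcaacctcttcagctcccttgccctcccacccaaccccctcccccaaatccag
Windows were found for 7 of the 8 members, all but Has2. Motifs were searched on both strands for an AP-1 site (TGANTCA, held by 6.75% of 32851 windows of this length), an NF-kB site (4.11%), a C/EBP site (TTNNGNAAT, 10.16%) and a TATA box (TATAAA, 12.37%). The Tnfaip6 window holds 1 AP-1 match, TGAGTCA, at -142 to -136 from the start site, seen on both strands because the letters are palindromic. Hyal2 holds 1 NF-kB match on the minus strand at -238 to -229, and none of these letters were found in the windows of Has1, Ptx3, Cd44, Vcan or Hyal1.

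Has1, 1 of 3 synthase genes, was found mainly in fibroblasts among the 3 sorted populations of vehicle mice. Fibroblast libraries of vehicle females held 6790, 3718, 4494 and 2819 CPM and those of vehicle males 4819, 3665, 7342 and 4605 CPM. Immune libraries held 48.3, 88.7, 9.64 and 14.8 CPM in vehicle females and 49.8, 163, 298 and 408 CPM in vehicle males. Keratinocyte libraries held 0.99, 0, 0 and 0.23 CPM in vehicle females, and a single count was seen in the 3 of vehicle males. The lowest fibroblast library thus lay above the highest immune library, and every immune library above every vehicle keratinocyte library.

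**Figure D1:**
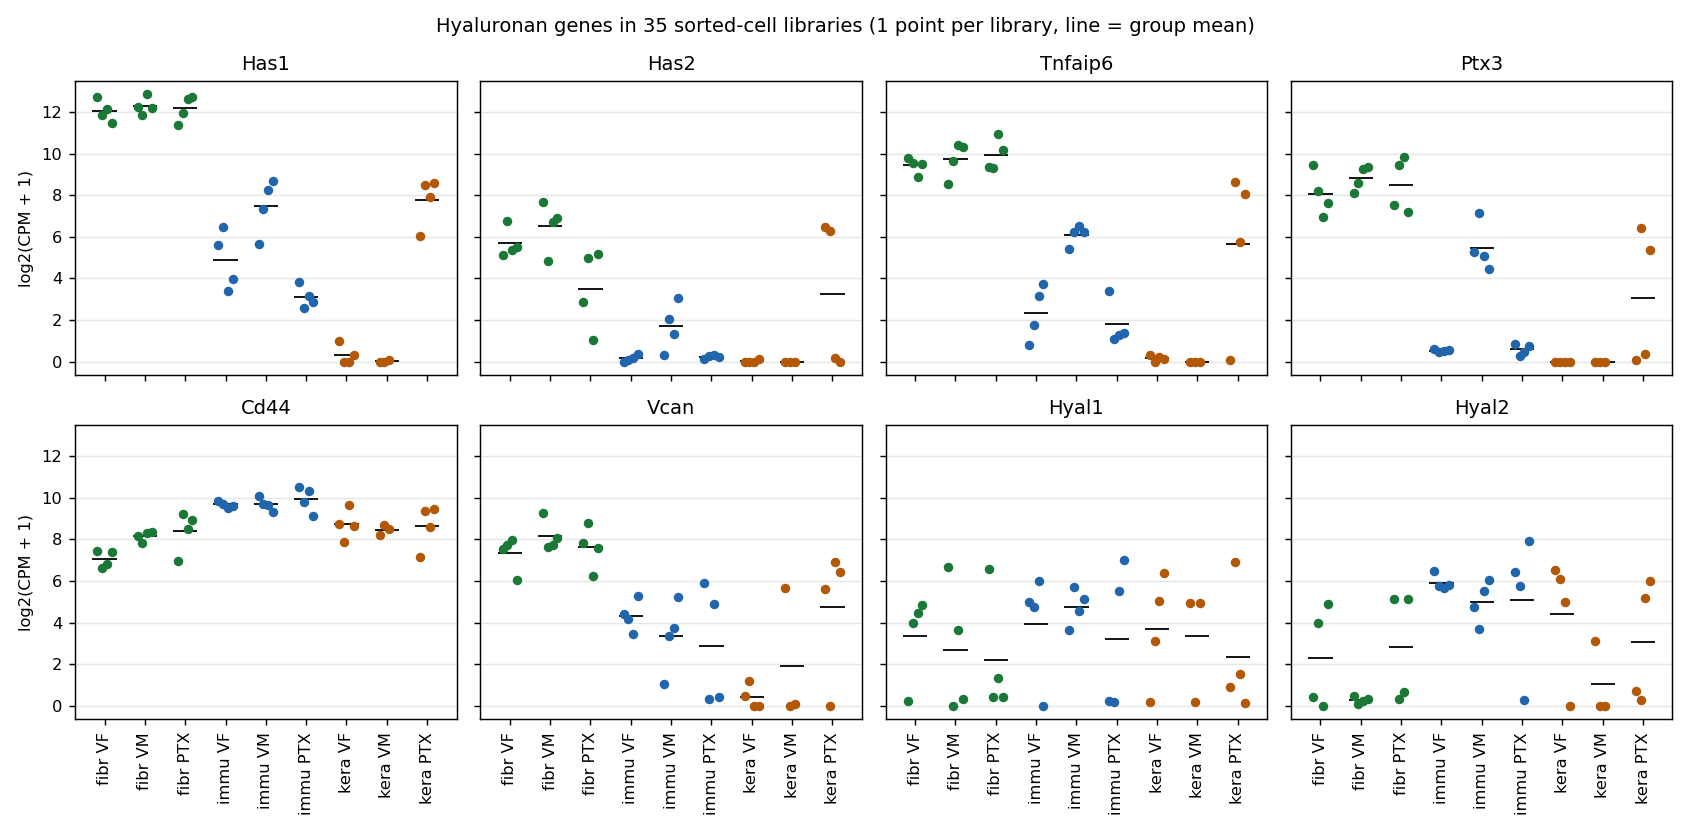
Level of each of the 8 members in every library, as log2(CPM + 1), so that a library with no count lies at 0. Points are single libraries and lines the means of the plotted values, for fibroblasts (fibr), immune cells (immu) and keratinocytes (kera) of vehicle females (VF), vehicle males (VM) and PTX males (PTX); Has1 lies between 2677 and 7342 CPM in all 12 fibroblast libraries and between 64.4 and 382 CPM in keratinocytes of PTX males.

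In vehicle females, Has1 averaged 4455 ± 1700 CPM (SD, n = 4 here and below unless stated) in fibroblasts, 40.4 ± 36.5 CPM in immune cells and 0.31 ± 0.47 CPM in keratinocytes. The fibroblast level was 13.64 ± 1.10 log2 units (± SE) above keratinocytes (edgeR quasi-likelihood test, Benjamini-Hochberg adjusted p = 3.92e-12) and 6.79 ± 0.84 above immune cells (edgeR adjusted p = 9.71e-08). Immune cells lay 6.85 ± 0.88 log2 units above keratinocytes (edgeR adjusted p = 2.06e-07). In vehicle males the difference between fibroblasts and immune cells was 4.47 ± 0.75 log2 units (edgeR adjusted p = 7.11e-05). These log2 values come from fits that share 1 estimate of spread. limma with voom quality weights gave the same directions in vehicle females but adjusted p of 0.293, 0.176 and 0.663 for Has1 in these 3 comparisons.

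Has2, the synthase known for cumulus matrix and embryonic heart development, was also found mainly in fibroblasts. Its fibroblast levels were 33.7, 109, 40.6 and 44.3 CPM in vehicle females and 205, 27.5, 103 and 119 CPM in vehicle males. In immune cells of vehicle females Has2 had 0 to 5 counts a library, and in keratinocytes of vehicle females 1 count in all 4 libraries together. Fibroblasts of vehicle females exceeded immune cells by 8.81 ± 2.18 log2 units (edgeR adjusted p = 0.00565). Against keratinocytes the ratio of pooled counts, scaled for depth, was 1992 with a 95% counting interval of 357 to 78679, and the difference passed the test (edgeR adjusted p = 0.00226). Has2 passed the filter on low counts through groups where it was high, such as fibroblasts, so both calls rest on those groups. In vehicle males fibroblasts lay 5.19 ± 1.85 log2 units above immune cells, which missed the threshold (edgeR adjusted p = 0.0996). The third synthase, Has3, was not a member; it had 0 counts in all fibroblast libraries of vehicle males and was at 92.0 CPM in 1 keratinocyte library of PTX males. For Has3, edgeR called no difference between keratinocytes of PTX and vehicle males. It also called none between fibroblasts and keratinocytes of vehicle females.

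Tnfaip6, whose product modifies hyaluronan with heavy chains, followed the same order. Fibroblast libraries held 878, 747, 466 and 729 CPM in vehicle females and 373, 801, 1380 and 1256 CPM in vehicle males. Immune libraries of vehicle females held 0.75, 2.37, 7.79 and 12.2 CPM, and those of vehicle males 41.4, 75.2, 91.3 and 73.0 CPM. Vehicle keratinocytes held at most 2 counts in any library. No fibroblast library overlapped any immune library, and no immune library of vehicle males overlapped those of vehicle females. Fibroblasts of vehicle females exceeded keratinocytes by 12.17 ± 1.51 log2 units (edgeR adjusted p = 1.48e-07) and immune cells by 6.93 ± 1.18 (edgeR adjusted p = 5.35e-05). In vehicle males the excess over immune cells was 3.76 ± 1.02 log2 units (edgeR adjusted p = 0.0212). That last call for Tnfaip6 was lost without immune vehicle male replicate 1 (adjusted p = 0.0726), 2 (0.0562) or 4 (0.0530), and without fibroblast vehicle male replicate 3 (0.0532), all by edgeR.

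Ptx3, the partner that cross-links heavy chains, was at 702, 294, 125 and 199 CPM in fibroblasts of vehicle females and at 277, 378, 621 and 660 CPM in those of vehicle males. In immune cells it had 6 to 10 counts a library in vehicle females and lay at 36.9, 140, 32.9 and 21.1 CPM in vehicle males. All 7 vehicle keratinocyte libraries were at 0. With a floor of 3 counts a library, Ptx3 in fibroblasts of vehicle females was at least 474-fold higher than in keratinocytes (edgeR adjusted p = 1.004e-06), and it was 9.49 ± 1.49 log2 units above immune cells (edgeR adjusted p = 1.85e-05). It passed the filter on low counts through groups where it was high, such as fibroblasts, so these calls rest on those groups. Fibroblasts and immune cells of vehicle males differed by 3.07 ± 1.11 log2 units, which missed the threshold (edgeR adjusted p = 0.106).

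Cd44, the receptor, ran in the other direction. Immune libraries held 935, 833, 732 and 789 CPM in vehicle females, keratinocytes 432, 234, 806 and 396 CPM, and fibroblasts 171, 98.7, 112 and 168 CPM. Fibroblasts of vehicle females were lower than immune cells, with a difference of -2.58 ± 0.52 log2 units (edgeR adjusted p = 0.000471), and lower than keratinocytes, with -1.76 ± 0.50 (edgeR adjusted p = 0.0153). In vehicle females all 3 populations carried the transcript, and every fibroblast library lay below every library of the other 2. Immune cells and keratinocytes overlapped and differed by 0.81 ± 0.49 log2 units (edgeR adjusted p = 0.296). The difference from keratinocytes for Cd44 was lost without fibroblast vehicle female replicate 2 (edgeR adjusted p = 0.0614) or 3 (0.0565) and without keratinocyte vehicle female replicate 3 (0.0868). In vehicle males fibroblasts (228 to 331 CPM) overlapped with keratinocytes (300 to 413 CPM) and lay below immune cells (629 to 1101 CPM).

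Vcan, the proteoglycan, lay at 186, 215, 247 and 65.9 CPM in fibroblasts of vehicle females and at 624, 198, 209 and 265 CPM in those of vehicle males. Immune libraries of vehicle females held 20.5, 17.3, 9.83 and 38.2 CPM, and keratinocytes of vehicle females 0 to 3 counts. Fibroblasts exceeded keratinocytes by 9.38 ± 2.16 log2 units (edgeR adjusted p = 0.00234), while the 3.06 ± 1.56 over immune cells missed the threshold (edgeR adjusted p = 0.240). Immune cells exceeded keratinocytes by 6.33 ± 1.95 (edgeR adjusted p = 0.0242), a Vcan call that was lost without keratinocyte vehicle female replicate 1 (edgeR adjusted p = 0.0564), 3 (0.0767) or 4 (0.0745).

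The hyaluronidase genes were patchy, near 0 in some libraries of a group and far higher in others of the same group. Hyal1, which encodes the lysosomal enzyme, was at 0.18, 14.7, 20.9 and 27.7 CPM in fibroblasts of vehicle females, at 30.8, 25.5, 62.5 and 0 CPM in immune cells of vehicle females and at 0.12, 7.75, 32.3 and 82.1 CPM in keratinocytes of vehicle females. Hyal2, which encodes the membrane-anchored enzyme, was at 0.36, 14.6, 0 and 28.5 CPM in those fibroblasts, at 89.5, 52.7, 49.2 and 54.3 CPM in those immune cells and at 91.6, 66.5, 30.5 and 0 CPM in those keratinocytes. Neither gene differed between populations of vehicle females by a margin that passed the test.

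Counted together for vehicle females, fibroblasts were higher than keratinocytes for 5 of the 8 members and lower for 1, where 12.4% of 14459 genes were called (8.34% higher, 4.11% lower). The 5 higher members (Has1, Has2, Tnfaip6, Ptx3 and Vcan) had 11, 1, 5, 0 and 5 counts over the 4 keratinocyte libraries. They passed the filter on low counts through groups where they were high, so these calls rest on those groups. Every fibroblast library lay above every keratinocyte library for those 5, as for 12.8% of genes, and below for Cd44, as for 7.43%. Against immune cells fibroblasts were higher for 4 and lower for 1, where 9.82% of genes were called (4.29% higher, 5.53% lower). The libraries of these 2 populations did not overlap for 5 members that were higher in fibroblasts, Vcan included (10.6% of genes), nor for Cd44 and Hyal2, which were lower (13.6%). Immune cells were higher than keratinocytes for 4 (Has1, Tnfaip6, Vcan and Ptx3), where 13.8% of genes were called (9.88% higher), and for all 4 the libraries did not overlap (16.9% of genes). The limit from the filter on low counts applies to these 4 as well. The Ptx3 call there rests on 31 immune counts against 0, with the immune mean under the CPM that 3 counts a library stand for in keratinocytes, and was lost without any of 6 of the 8 libraries (highest edgeR adjusted p = 0.0997). In vehicle males fibroblasts were higher than immune cells for 2, Has1 and Tnfaip6, where 4.85% of genes were called (1.02% higher); Has2, Ptx3 and Vcan, higher in fibroblasts, also did not overlap (7.13% of genes), nor did Cd44 and Hyal2, lower in fibroblasts (12.7% of genes), but these 5 did not pass. Leaving out the shallow keratinocyte library, replicate 2 of the vehicle females, left the member counts against keratinocytes at 6 and 4.

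Paclitaxel left the members' levels in fibroblasts without a detectable change, and 0 of 8 passed the test. Has1 in fibroblasts of PTX males was at 2677, 3918, 6327 and 6829 CPM, a mean of 4938 ± 1971 against 5108 ± 1571 in vehicle males, and the difference was -0.13 ± 0.29 log2 units (edgeR adjusted p = 0.995). Tnfaip6 was at 657, 638, 1937 and 1150 CPM, with a difference of 0.10 ± 0.39 (edgeR adjusted p = 0.995). Ptx3 was at 186, 707, 909 and 144 CPM, with a difference of -0.08 ± 0.58 (edgeR adjusted p = 0.997). For each of these 3 genes the PTX and vehicle libraries overlapped, and the sign of so small a difference changed with the scaling or with 1 library left out.

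Has2 had the lowest levels under PTX among the fibroblast groups, at 6.27, 30.4, 1.05 and 35.3 CPM, which overlapped with vehicle males through their library at 27.5 CPM. Its difference of -2.64 ± 1.19 log2 units had an unadjusted p of 0.0397 and did not pass (edgeR adjusted p = 0.550). Cd44 lay at 123, 594, 358 and 491 CPM under PTX against 290, 228, 317 and 331 CPM (0.38 ± 0.48, edgeR adjusted p = 0.980). Vcan differed by -0.46 ± 0.60 (edgeR adjusted p = 0.980). Hyal2 was at 0.22 ± 0.13 CPM in vehicle males and at 34.6, 0.24, 0.58 and 34.7 CPM under PTX; its 6.24 ± 2.56 log2 units did not pass by edgeR (adjusted p = 0.500), and DESeq2 called it (adjusted p = 0.0380). Across all genes edgeR called 2 of 10857 in this comparison, 0.0184%, with 8.07% at an unadjusted p under 0.05, so the count of 0 members stands beside a near-empty background. RLE scaling moved the median of all genes by 0.16 log2 units here, which covers the differences of Has1, Tnfaip6 and Ptx3.

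In immune cells 3 of the 7 members tested were lower in PTX males than in vehicle males, and none was higher; Has2 did not pass the filter on low counts. Has1 fell from 49.8, 163, 298 and 408 CPM to 13.2, 5.03, 7.92 and 6.36 CPM, a difference of -4.84 ± 0.86 log2 units (edgeR adjusted p = 0.00924). Tnfaip6 fell from 41.4, 75.2, 91.3 and 73.0 CPM to 9.52, 1.13, 1.40 and 1.63 CPM, a difference of -4.38 ± 1.19 log2 units (edgeR adjusted p = 0.0482). Ptx3 fell from 36.9, 140, 32.9 and 21.1 CPM to 0.82, 0.20, 0.39 and 0.69 CPM, a difference of -6.78 ± 1.22 log2 units (edgeR adjusted p = 0.00932). The PTX values for Ptx3 stand for 10, 3, 5 and 8 counts. It passed the filter on low counts through the vehicle male libraries, where it was high, so its call rests on that group. Every PTX library was below every vehicle male library for these 3 genes, a pattern held by 10.8% of the 12131 genes tested. Of these genes 5.51% were called, 4.56% as lower and 0.956% as higher. Cd44 did not pass (1457, 898, 1286 and 557 CPM under PTX, 0.31 ± 0.27 log2 units, edgeR adjusted p = 0.702).

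The immune result for Has1, Tnfaip6 and Ptx3 depended on which vehicle group it was set against. With vehicle females as controls, an alternative added after the data were seen, the differences were -2.31 for Has1 (edgeR adjusted p = 0.155), -0.74 for Tnfaip6 (0.904) and 0.22 for Ptx3 (0.983). The call for Tnfaip6 was also lost without immune vehicle male replicate 1 (edgeR adjusted p = 0.0627), 2 (0.101), 3 (0.108) or 4 (0.0973) or PTX replicate 2 (0.0732), 3 (0.0696) or 4 (0.0706), and that for Ptx3 without vehicle male replicate 2 (0.0508). limma with voom quality weights called none of the 3 (adjusted p = 0.360, 0.222 and 0.324).

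Markers of several other cell types moved with this result. The 10 fibroblast markers summed to 4518 to 10082 CPM in immune libraries of vehicle males, to 243 to 1452 CPM in those of PTX males and to 86.1 to 394 CPM in those of vehicle females, and all 10 had over 3 counts in every library of vehicle and PTX males. From vehicle males to PTX males, the 8 endothelial markers went from 155 to 631 CPM down to 0.34 to 41.5, with Kdr and Emcn at 0 under PTX, and 7 pericyte and smooth muscle markers from 278 to 2299 CPM down to 6.32 to 43.7. The 10 keratinocyte markers went from 109 to 2415 CPM down to 4.43 to 28.8, with Krt1, Trp63 and Dsg3 at 0 under PTX. In contrast, 7 mast cell markers went from 1250 to 2561 CPM up to 2950 to 7283. The number of genes with over 10 counts was 11000 to 12813 in vehicle males and 5956 to 8700 in PTX males. The part of these shifts in the result was not tested.

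The members were also set against fibroblast genes within each immune library, and the outcome depended on the reference gene. Per 1000 counts of Col1a2 in the same library, Has1 was at 74.5, 347, 354 and 332 counts in vehicle males and at 152, 81.5, 32.8 and 26.1 in PTX males, so that the groups overlapped on this scale. Tnfaip6 was at 61.9, 160, 108 and 59.4 per 1000 Col1a2 counts in vehicle males and at 110, 18.2, 5.79 and 6.71 in PTX males, which also overlapped. With Dcn as the reference the medians were close, 92.9 in vehicle males and 90.1 in PTX males for Has1, and 30.5 and 22.5 for Tnfaip6. With the 10 summed markers they were 38.3 and 9.53 for Has1 and 12.1 and 2.23 for Tnfaip6. In immune cells of vehicle females, which had 140 to 710 Col1a2 counts a library, Has1 was at 817 to 6464 per 1000 Col1a2 counts, above the 279 to 721 in fibroblasts of vehicle females. With other references the 2 populations overlapped for Has1, at 78.5 to 893 against 116 to 236 per 1000 Dcn counts and at 52.0 to 561 against 39.7 to 97.8 per 1000 counts of the summed markers. Fewer cells of a type and less RNA per cell cannot be told apart in such bulk libraries.

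The PTX effect differed between fibroblasts and immune cells for the same 3 genes. The difference between effects was 4.56 ± 0.77 log2 units for Has1 (edgeR adjusted p = 0.000483), 4.31 ± 0.93 for Tnfaip6 (edgeR adjusted p = 0.00665) and 6.57 ± 0.999 for Ptx3 (edgeR adjusted p = 0.000124), each from an interaction term in a fit of 24 libraries. That is 3 of 8 members, where 3.51% of 13329 genes were called (3.15% higher). The interaction used the same vehicle male immune libraries as above. With vehicle females as controls in immune cells, edgeR called none of the 3. Ptx3 had 10, 3, 5 and 8 counts in the immune libraries of PTX males. RLE scaling moved the median of all genes by 0.25 log2 units in this comparison and kept all 3 calls, while limma with voom quality weights kept none (adjusted p = 0.847, 0.342 and 0.339). In the same comparison 7 of 10 fibroblast, 4 of 7 pericyte and smooth muscle, 3 of 8 endothelial and 3 of 9 keratinocyte markers were called in the same direction as the members, and their part in the result was not tested.

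**Figure D2:**
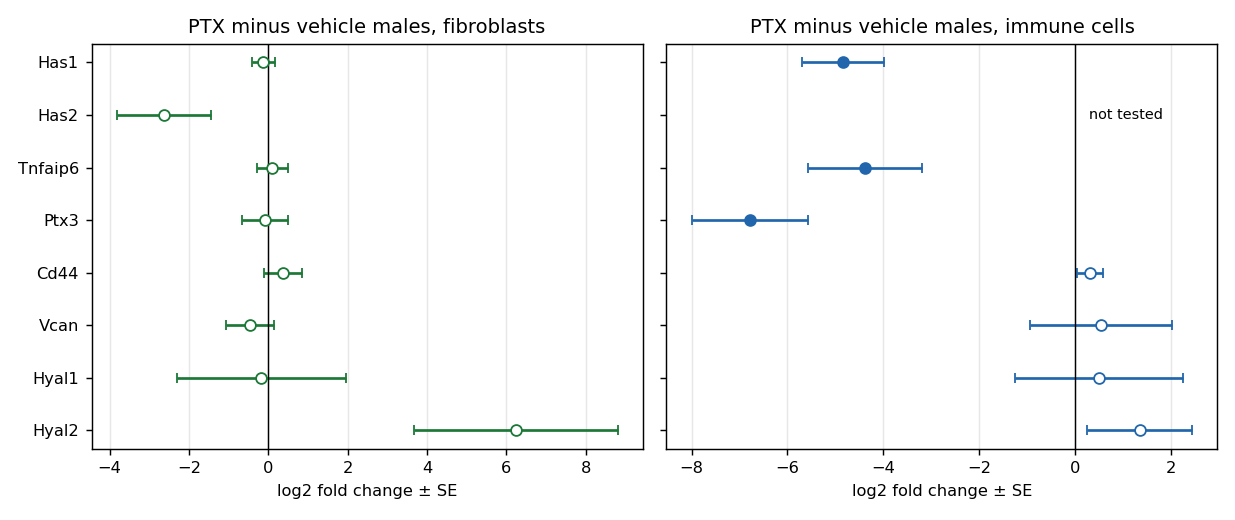
Log2 difference between PTX males and vehicle males for each tested member in fibroblasts and in immune cells, with bars of 1 SE from the edgeR fits and filled points where the test passed; the horizontal axes of the panels differ. Has1, Tnfaip6 and Ptx3 lie near 0 in fibroblasts and between -6.78 and -4.38 in immune cells; keratinocytes are left out because the members were picked there.

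Vehicle females and vehicle males were compared in each population. In immune cells 1 of 7 members passed, where 0.354% of genes were called, 0.289% as lower in females: Ptx3 was lower in females, at 0.53, 0.37, 0.43 and 0.46 CPM against 36.9, 140, 32.9 and 21.1 CPM, by -7.01 ± 1.23 log2 units (edgeR adjusted p = 0.0282). With 10, 6, 7 and 8 counts in the female libraries, Ptx3 passed the filter on low counts through the same vehicle male libraries as above. The Ptx3 call was lost without vehicle male replicate 1 (edgeR adjusted p = 0.0684), 2 (0.192) or 3 (0.0844) and without vehicle female replicate 1 (0.151), 2 (0.118), 3 (0.158) or 4 (0.145). Ptx3 and Tnfaip6 were lower in every female than in every male library, as were 4.91% of genes, but Tnfaip6 did not pass (-3.63 ± 1.15, edgeR adjusted p = 0.363), nor did Has1 (-2.53 ± 0.77, edgeR adjusted p = 0.311). In the same comparison 7 of 10 fibroblast markers were called as lower in females and 6 of 7 mast cell markers as higher, and their part in this difference was not tested. In fibroblasts 0 of 8 members passed, where 0.0184% of genes were called and 2.74% had an unadjusted p under 0.05; Cd44 was lower in all 4 female libraries than in all 4 male ones, as were 1.74% of genes (-0.97 ± 0.48, edgeR adjusted p = 0.99972). In keratinocytes 0 of 6 passed, where 0.00914% of genes were called and 8.02% had an unadjusted p under 0.05.

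Keratinocyte libraries of PTX males, the contrast by which the genes were picked, held Has1 at 64.4, 362, 238 and 382 CPM, against 1 count over the 3 vehicle male libraries. The ratio of pooled counts, scaled for depth, was 9029, a description that rests on that 1 count. Tnfaip6 was at 0.07, 390, 52.9 and 267 CPM, where the first value is a single count, and vehicle males were at 0. With a floor of 3 counts a library, its mean was at least 686-fold higher. Replicate 1 therefore carried Has1 but next to no Tnfaip6, and the other 3 libraries carried both.

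Ptx3 was at 0.07, 84.3, 0.30 and 39.7 CPM in the PTX keratinocyte libraries and at 0 in all vehicle ones, at least 120-fold higher by its mean; only replicates 2 and 4 were above 5 counts. Has2 was at 88.6, 77.3, 0.12 and 0 CPM, against 0 in vehicle males, at least 160-fold higher by its mean. The pattern over replicates differed between the genes: Has2 was carried by replicates 1 and 2, and Ptx3 by replicates 2 and 4. Cd44 was at 144, 654, 392 and 701 CPM against 300, 413 and 361 CPM in vehicle males, so that the groups overlapped. Vcan was at 48.4, 0, 121 and 85.9 CPM against 49.7, 0 and 0.07 CPM. Hyal1 was at 0.86, 118, 1.85 and 0.11 CPM against 29.9, 0.12 and 29.5 CPM, and Hyal2 at 0.64, 0.21, 35.6 and 63.2 CPM against 7.59, 0 and 0 CPM. Of 10939 genes tested between PTX and vehicle male keratinocytes 1.45% were called, and in 9.15% every PTX library lay above every vehicle male library; Has2 and Ptx3 did not pass the filter on low counts there.

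The members' levels in these PTX keratinocyte libraries were set beside those of fibroblasts. Has1 in the 4 keratinocyte libraries was 1.30%, 7.34%, 4.82% and 7.73% of its mean in fibroblasts of PTX males (4938 CPM). Tnfaip6 was 0.0065%, 35.6%, 4.83% and 24.4% of its fibroblast mean of 1096 CPM, and Ptx3 0.015%, 17.3%, 0.061% and 8.15% of 487 CPM. Fibroblast marker genes were set on the same scale: Col1a2 was 57.6%, 23.8%, 40.6% and 37.4% of its fibroblast mean, Col3a1 31.4% to 41.9% and Dcn 12.2% to 16.7%. Over the whole list of 10 markers, the share of 10, 9, 10 and 7 genes was above that of Has1 in replicates 1 to 4, and that of 10, 3, 10 and 3 genes above that of Tnfaip6. The lowest marker shares were 1.67% for Pdgfra in replicate 4 and 1.96% for Col5a2 in replicate 2. Has2 stood at 485% and 424% of its mean in PTX fibroblasts (18.3 CPM) in replicates 1 and 2, and Cd44 at 36.7%, 167%, 100.1% and 179% of 391 CPM.

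**Figure D3:**
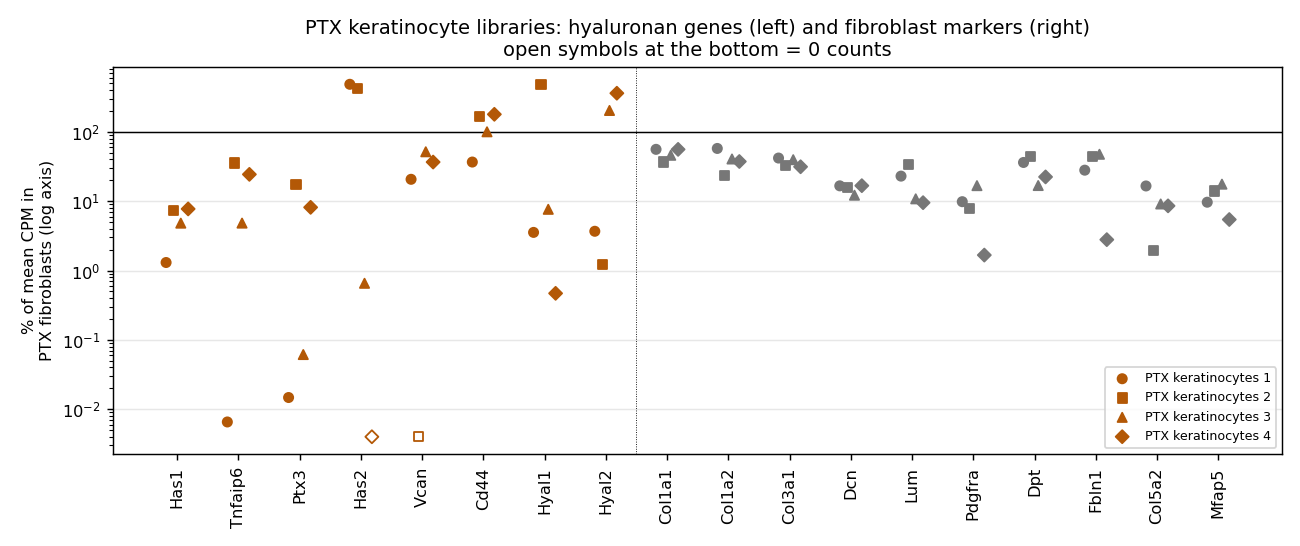
Level of the 8 members (left) and the 10 fibroblast markers (right) in each of the 4 keratinocyte libraries of PTX males, 1 symbol shape per library, as a percentage of the mean in fibroblasts of PTX males on a log axis, where the solid line is equality and open symbols are libraries with no count. Has1 lies between 1.30% and 7.73% and Dcn between 12.2% and 16.7%, while Tnfaip6 spreads from 0.0065% to 35.6%.

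Counts of a member per 1000 counts of Col1a2 do not depend on library scaling. Has1 stood at 22.6, 308, 118 and 206 per 1000 Col1a2 counts in the PTX keratinocyte libraries and at 392, 726, 1722 and 1749 in fibroblasts of PTX males, without overlap. Tnfaip6 stood at 0.025, 332, 26.3 and 144 in the former and at 96.2, 118, 527 and 295 in the latter, with overlap. Ptx3 ran from 0.025 to 71.6 in these keratinocytes and from 27.3 to 248 in these fibroblasts. By medians, keratinocytes reached 13.3% of the PTX fibroblast ratio for Has1 and 41.3% for Tnfaip6. The median of the fibroblast ratio to Col1a2 was itself higher under PTX, with overlapping libraries and no test. For Has1 it was 468 in vehicle males and 1224 in PTX males, beside 162 in PTX keratinocytes. For Tnfaip6 these medians were 97.8, 206 and 85.3. With Dcn as the reference the fibroblast medians of vehicle and PTX males were 135 and 111 for Has1, and 33.3 and 29.2 for Tnfaip6. With the summed markers they were 58.7 and 75.4 for Has1, and 13.7 and 19.0 for Tnfaip6. Of the 10 fibroblast markers 1 was called lower in PTX than in vehicle male fibroblasts, where 0.0184% of all genes were called. The share for Has1 was 52.8% with Dcn as the reference and 32.7% with the summed fibroblast markers, and that for Tnfaip6 was 96.2% and 65.7%, so both depend on the reference gene. For Ptx3 the share was 12.9% with Col1a2, 28.9% with Dcn and 20.2% with the summed markers. Replicate 1 had the most Col1a2 counts of the 4 libraries, 39822, and the fewest Has1 (899) and Tnfaip6 (1) counts. Col1a2, the fibroblast markers, the endothelial and the pan-immune markers all moved with the members' rise in PTX keratinocytes, and their part in it was not tested.

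**Figure D4:**
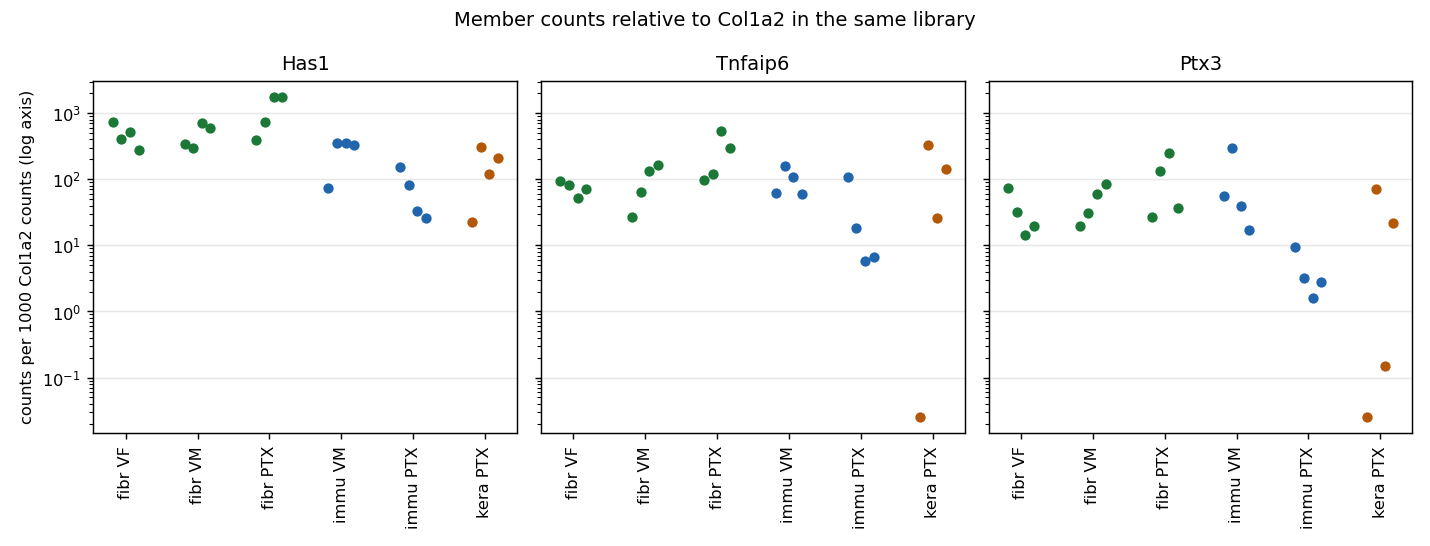
Counts of Has1, Tnfaip6 and Ptx3 per 1000 counts of Col1a2 in each library, on a log axis, for fibroblasts (fibr), immune cells of males (immu) and the keratinocytes of PTX males (kera). VF, VM and PTX are vehicle females, vehicle males and PTX males; Has1 in PTX keratinocytes runs from 22.6 to 308 and in the 12 fibroblast libraries from 279 to 1749.

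Beyond the members, 46 further genes of hyaluronan supply, breakdown, binding and remodelling were followed. In vehicle females 16 of the 33 tested were higher in fibroblasts than in keratinocytes and 2 were lower, where the background above was 12.4%. Genes that supply the sugar precursors were among them, with 4 of 11 higher: Gfpt2, an enzyme at the entry of the hexosamine pathway, was at 2029 ± 835 CPM in fibroblasts and 0.34 ± 0.27 CPM in keratinocytes (12.82 ± 1.12 log2 units, edgeR adjusted p = 2.20e-11), and Ugdh, which makes UDP-glucuronic acid, at 847 ± 128 and 45.3 ± 45.7 CPM (4.23 ± 1.08, edgeR adjusted p = 0.00623). Uap1, which makes UDP-N-acetylglucosamine, was higher by 4.69 ± 0.72 (edgeR adjusted p = 7.33e-06) and Hk2, a hexokinase gene, by 3.26 ± 0.88 (edgeR adjusted p = 0.00990). Of the versican-cleaving proteases 4 of 5 were higher (Adamts1, Adamts4, Adamts5 and Adamts15). Against immune cells 7 of these 33 were higher in fibroblasts, among them Gfpt2, Uap1, Ugdh and Itih5, where 4.29% of all genes were higher, and 5 were lower, where 5.53% were, among them the receptor genes Stab1 and Lyve1 (-9.88 ± 1.10 and -9.63 ± 1.72 log2 units, edgeR adjusted p = 1.05e-08 and 0.000119) and Hexa, which encodes a lysosomal hexosaminidase subunit.

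Under PTX 0 of 28 of these genes passed in fibroblasts, where 0.0184% of all genes were called. In immune cells 2 of 29 were lower and 0 higher, where 5.51% of genes were called: Itih5, a heavy-chain family gene, went from 67.4 ± 17.4 to 1.02 ± 0.64 CPM (-6.05 ± 1.04 log2 units, edgeR adjusted p = 0.00756) and Layn, which encodes the hyaluronan receptor layilin, from 12.2 ± 11.4 to 0.04 ± 0.04 CPM (-8.07 ± 1.70, edgeR adjusted p = 0.0185). Layn was near 0 under PTX and passed the filter on low counts through vehicle libraries, so its call rests on them. In keratinocytes 1 of 28 was higher, where 1.15% of genes were called as higher: Adamts4, a versican-cleaving protease gene, ran from 196 to 1450 CPM in PTX libraries and from 0.12 to 0.43 CPM in those of vehicle males, beside 531 to 1225 CPM in fibroblasts of PTX males. Gfpt2 ran from 7.84 to 128 CPM in PTX keratinocytes and from 2661 to 4648 CPM in PTX fibroblasts. The inflammatory genes often induced beside Tnfaip6 gave 6 higher and 1 lower of 14 tested in immune cells under PTX, with Nfkbia higher by 0.99 ± 0.17 log2 units (edgeR adjusted p = 0.00756) and Ccl7 by 1.30 ± 0.32 (edgeR adjusted p = 0.0332). The direction of these 6 was opposite to that of the 3 members that fell in the same libraries. In keratinocytes 4 of 11 of that list were higher (Il6, Ccl2, Ccl7 and Nfkbia), as were 3 of 10 immediate early genes (Fos, Junb and Jun), and in fibroblasts 0 of 15 and 0 of 10 passed. The keratinocyte comparison also called 6 of 10 fibroblast, 6 of 8 endothelial and 2 of 8 pan-immune markers higher, and 6 of 10 keratinocyte markers lower. The part of these marker shifts in the keratinocyte calls, Adamts4 included, was not tested. The immune comparison called 7 of 10 fibroblast, 4 of 7 pericyte and smooth muscle, 6 of 8 endothelial and 2 of 9 keratinocyte markers lower. It called 6 of 7 mast cell and 1 of 7 macrophage markers higher. The part of these shifts in the immune calls, from Itih5 and Layn to Nfkbia and Ccl7, was not tested. Those calls used vehicle males as controls, on which the members' immune result depended.

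Across all 35 libraries and 13300 genes, those with levels most like Has1 (Pearson r of log2(CPM + 1), given as a description over libraries that share 3 populations) were Htra3 (0.972), Ccl11 (0.969), Serping1 (0.968), Ccdc80 (0.967) and Scara5 (0.962). Most like Tnfaip6 were Lrrn4cl (0.970), Scara5 (0.956), Zfhx4 (0.954), Cygb (0.953) and Ptx3 (0.952). Among the members, Has1 and Tnfaip6 had r = 0.948 and Has1 and Ptx3 r = 0.912, whereas Has1 and Cd44 had r = -0.405. Hyal1 and Hyal2 had r = 0.046 with each other. With the other members Hyal2 ran from -0.501 (Has2) and -0.389 (Ptx3) to 0.370 (Cd44), and Hyal1 from -0.233 (Vcan) to 0.0101 (Cd44). Vcan and Has2 also followed Has1, with r = 0.804 and 0.773.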

How the data were processed

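Polyadenylated RNA of 35 sorted libraries was sequenced as single-end reads from a stranded kit, per the labels' protocols. The deposited values are raw read counts per gene symbol, made by the authors with bcl2fastq, TopHat2 and HTSeq on build mm9, per the submitters' processing notes. The strand setting of the counting, the gene annotation and tool versions were not given in the sources used here, so reads of overlapping genes may be shared. HTSeq's summary lines stayed out of library sizes. Gene counts were 35.44% to 52.32% of all reads listed in fibroblasts, 38.7% to 45.97% in immune cells and 19.26% to 27.16% in keratinocytes.

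Counts were tested with edgeR 4.0.16 in R 4.3.3 (filterByExpr, TMM scaling, robust quasi-likelihood test, two-sided), and p-values were adjusted by the Benjamini-Hochberg method over all genes of a fit, with a threshold of 0.05. PTX and sex differences came from 1 fit per population, population differences from 1 fit of all 35 libraries, and the difference between PTX effects from an interaction in the fibroblast and immune libraries. The code of the 11 comparisons was run on simulated counts with a smaller spread among libraries than these data have. That run cannot show how the tests perform at the spread found here. The biological coefficient of variation, the relative spread among libraries, ran from 1.23 in the immune fit to 1.71 in the keratinocyte fit. Levels are CPM with TMM scaling over all 35 libraries. A group with no counts was set at a floor of 3 counts per library for a bound on a fold. Counting intervals and floors cover counting error only. No 2 libraries of a group agreed within sampling noise (lowest chi-square per degree of freedom 87.46).

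The members and all gene lists were chosen with earlier results of these data known. All 8 members were named, then up to 4 genes per list that passed a comparison, and the 5 genes most like Has1 and Tnfaip6 with clone-like symbols passed over. Alternatives were RLE scaling, no filter, DESeq2 1.42.0, limma 3.58.1 with voom quality weights, fits of only the groups compared, a replicate block and each library left out; vehicle females as controls were added after the data were seen. Promoter sequences are from RefSeq on GRCm38.p6, another build than that of the counts, and were matched by symbol.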

Additional observations from a re-analysis of the deposited data

Results flagged for a closer look

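The PTX effect differed between fibroblasts and immune cells by an interaction test for 3 members, with the effect in fibroblasts minus that in immune cells at 4.56 log2 units for Has1, 6.57 for Ptx3 and 4.31 for Tnfaip6. Vehicle males were the controls in this test. With vehicle females as controls in immune cells, edgeR called none of these 3 members. Markers of fibroblasts (7 of 10), pericytes and smooth muscle (4 of 7), endothelium (3 of 8) and keratinocytes (3 of 9) were called in the same direction by the same test, and 6 of 7 mast cell markers were higher in PTX than in vehicle male immune cells. The part of these shifts in the members' differences was not tested.

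Of 63 combinations of a member and a group of 4 libraries, 9 had 1 library far from the others by Dixon's criterion at the 95% level. That level assumes normally distributed values. It was applied to CPM, which are skewed and often near 0 here, so the number expected by chance is not known. Has2 stood at 109 CPM in replicate 2 of the vehicle female fibroblasts and at 0.077 CPM, a single count, in replicate 4 of the vehicle female keratinocytes. Hyal1 stood at 102 CPM in replicate 1 of the vehicle male fibroblasts, at 94.8 CPM in replicate 1 of the PTX fibroblasts and at 118 CPM in replicate 2 of the PTX keratinocytes. Hyal2 was at 89.5 CPM in replicate 1 of the vehicle female immune cells and Vcan at 624 CPM in replicate 1 of the vehicle male fibroblasts. Tnfaip6 was at 9.52 CPM in replicate 1 of the PTX immune cells, and Ptx3 at 140 CPM in replicate 2 of the vehicle male immune cells.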

How the results depend on the processing

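For single members' differences, 509 values under alternatives kept direction and call, 49 kept direction and lost the call, 12 gained one and 18 reversed; for counts and shares, 216 stayed within 1.5 times (shares within 1 SD) and 102 moved. Unless a value above shows it, the cause was not tested. In fibroblasts under PTX, edgeR's 2 genes became 1 with RLE scaling, 4 with no filter, 0 with limma and voom weights, 403 with DESeq2 (1 member) and 1 with only the groups compared, and 0 to 4 with 1 library left out (0 without vehicle male replicates 1 and 3, 1 without vehicle male replicate 2 and PTX replicates 3 and 4, 3 without vehicle male replicate 4 and 4 without PTX replicate 1). Reversed values there were Has1 at 0.057 with RLE scaling and with DESeq2, Tnfaip6 at -0.19 and Cd44 at -0.17 with voom, Vcan at 0.28 and Ptx3 at 0.37 with vehicle females as controls, and Ptx3 at 0.26 with RLE scaling and DESeq2; with 1 library left out Has1 ran from -0.31 to 0.12, Tnfaip6 from -0.26 to 0.36, Vcan from -0.98 to 0.054 and Ptx3 from -0.53 to 0.24. In immune cells under PTX, 669 genes became 213 with vehicle females as controls (0 members; Ptx3 reversed to 0.22), 407 with no filter, 38 with voom (0 members), 1870 with DESeq2 and 230 to 954 with 1 library left out (1 to 3 members; 230, 232 and 279 without vehicle male replicates 2, 3 and 4). In keratinocytes under PTX 159 genes became 339 with voom, 1339 with DESeq2 and 84 to 121 with 1 library left out (84 without vehicle male replicate 3, 87, 100 and 94 without PTX replicates 2, 3 and 4). Sex differences went from 2 to 10 genes (voom), 62 (DESeq2), 1 (only the groups compared) and 1 to 2 (1 library out) in fibroblasts; from 43 to 445 (voom, 2 members), 284 (DESeq2, 3 members), 166 (only the groups compared) and 12 to 29 (1 library out, 0 to 1 members, under 29 without any library but vehicle female replicate 2) in immune cells; and from 1 to 3 (no filter), 3 (voom), 553 (DESeq2) and 1 to 3 (1 library out; 3 without vehicle male replicates 1 and 3, 2 without vehicle male replicate 2 and vehicle female replicates 1 and 4) in keratinocytes. The fibroblast sex count was 1 without any library but vehicle male replicate 1.

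In vehicle females, fibroblasts against keratinocytes went from 1800 genes to 2899 (voom) and 3539 (DESeq2), with 1363 to 1543 genes and 5 to 6 members when 1 library was left out; fibroblasts against immune cells from 1420 to 3657 (voom), 2573 (DESeq2), 2175 (only the groups compared) and 1039 to 1151 (1 library out); and immune cells against keratinocytes from 2002 to 3547 (voom, 1 member), 3740 (DESeq2) and 1497 to 1745 (1 library out, 2 to 4 members), with 1 member where only the groups compared were fitted. In vehicle males, fibroblasts against immune cells went from 701 to 3144 (voom, 7 members), 2092 (DESeq2, 7 members), 1575 (only the groups compared, 7 members) and 449 to 591 (1 library out, 1 to 2 members; 455, 449 and 467 without fibroblast replicates 2, 3 and 4). The interaction went from 468 to 0 (voom, 0 members), 1758 (DESeq2) and 299 to 527 (1 library out; 299 without fibroblast vehicle male replicate 4). The share of Has1 in PTX keratinocytes was 52.8% relative to Dcn and 32.7% relative to the summed markers, against 13.3% relative to Col1a2.

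Replicate numbers were not treated as pairs: 62 correlations of same-numbered deviations ran from -0.068 to 0.0944, none over 0.1, a cut that is not a test. Vehicle female and vehicle male immune cells had their highest correlation at the same number for replicates 1, 2 and 4. With a replicate block, edgeR called 148 genes in immune cells under PTX (1 member), 24 (0 members) and 1 for the sex difference in immune cells and fibroblasts, and 268 for the interaction. Has2 in immune cells and Has2 and Ptx3 in keratinocytes were carried by too few libraries to pass the filter on low counts and were not tested there.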
